A study of Homo sapiens with 7 samples.

Results

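The subject is the state of HSC-3 cells at the end of a 42 °C heat stress, set against unheated cells. HSC-3 cells are an established line of human origin, derived from a squamous carcinoma of the mouth. The tested array carries RNA of cells kept at 42 °C for 90 min and collected at once (0 h of recovery). The control array carries RNA of untreated cells cultured at 37 °C. These are 2 of the 7 arrays of the series and were chosen by their labels alone. The other 5 arrays hold cells after 6 and 12 h of recovery at 37 °C from 42 °C, and after 0, 6 and 12 h from 44 °C. Each condition has 1 Affymetrix U133 Plus 2.0 array, so the differences reported have no replicate check and carry no p-value.

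Cells meet heat by releasing heat shock factor 1 (HSF1) from chaperones. It then binds heat shock elements, which are inverted repeats of a short GAA unit in promoters, and drives transcription of chaperone genes. Chaperones of the HSP70, HSP40, HSP90 and small heat shock protein families hold or refold damaged proteins. NF-kB is the main activator of inflammatory genes in epithelial and carcinoma cells, and its target NFKBIA encodes the inhibitor that shuts it off again. Many NF-kB targets have short-lived mRNAs.

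Values are the deposited intensities, taken as linear and unnormalized from their range and differing medians, since the labels state neither. The median over all probe sets was 18.7 on the 42 °C, 0 h array and 22.4 on the control array. Values under a floor of 21.4 (the pooled median of all arrays) were raised to it before log2, so a difference from a value given below it is a lower bound. The words rose and fell are kept for genes that passed 2-fold under each of 3 scalings, namely the deposited values, a quantile normalization and a shift of each array's median. Of 12994 genes at or above the floor on either array, 219 rose (1.69%) and 462 fell (3.56%). As deposited 23.9% of the genes past 2-fold were higher (219 higher, 699 lower), with quantile values 43.5% (364 and 472) and with shifted values 35.4% (299 and 545), so the balance of rises and falls depends on the scaling. The median log2 difference of all measured genes was -0.13 as deposited and -0.01 after quantile normalization. Among the 8712 bright genes, which reached 4 times the floor on either array, 127 rose (1.46%) and 259 fell (2.97%).

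Both arrays showed the keratins of basal squamous epithelium. KRT14 stood at 11326 and KRT5 at 5949 at 42 °C, 0 h, against 11252 and 6011 in the control. None of the 7 measured epithelial markers passed 2-fold. Of 10 fibroblast markers, 3 were above the floor at 42 °C, 0 h and 4 in the control, with summed intensities of 440 and 355, and COL1A1 was the highest of them at 42 °C, 0 h (249 against 139). Of 9 leukocyte markers it was 2 and 3 (sums 120 and 110), and of 8 endothelial markers 2 and 2 (sums 91.6 and 128). Both arrays are of the HSC-3 line, and the origin of these marker signals was not tested. In bulk RNA fewer cells with a transcript and less of it per cell cannot be told apart. ACTB was at 16571 and 15845, and GAPDH at 12726 and 13212.

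**Figure D1:**
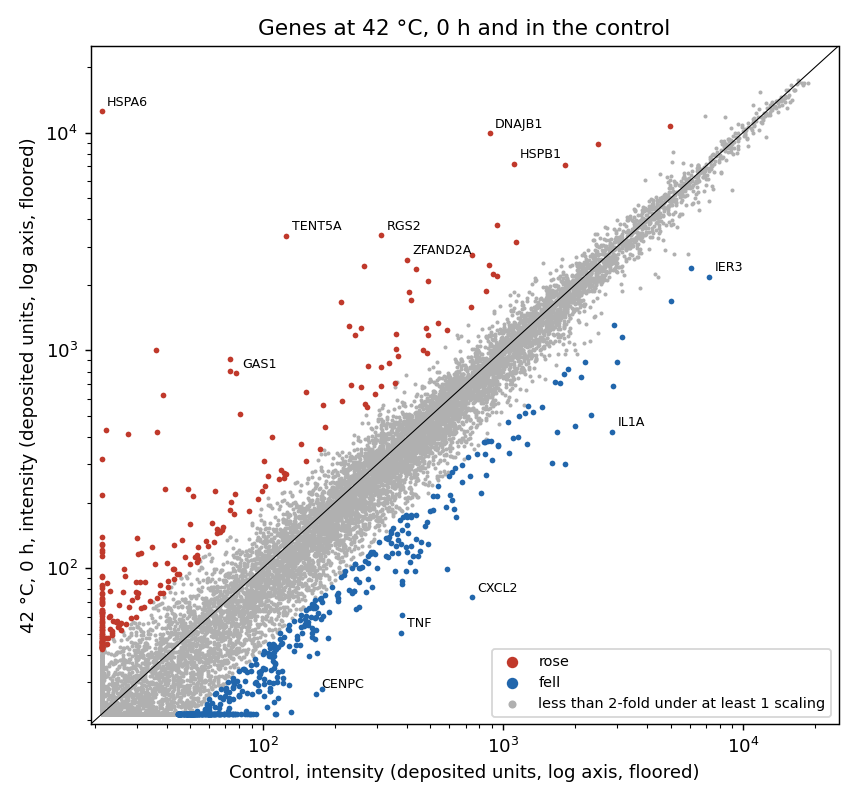
Intensity at 42 °C, 0 h (vertical) against the control (horizontal) for each of 12994 genes, both on log axes with values under 21.4 raised to it. Red points rose and blue points fell by 2-fold under all 3 scalings, the line marks equal values, and HSPA6 lies at the left edge because it was below the floor in the control.

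The promoters of 4 risen chaperone genes are shown. They were picked from the 5 of 11 that hold a facing pair of GAA units, as in heat shock elements. Lone pairs facing away from each other and imperfect units were not searched for. A gene without a match may thus still hold a heat shock element. Sequences are from RefSeq (GRCh38.p14) and run 5′ to 3′ over the 200 bases before the start site. Capitals mark GAANNTTC, which is a pair of GAA units facing each other and reads the same on both strands, and in HSPA6 also the overlapping run of 3 such units.
HSPA6 (chr1:161524340-161524539, plus strand): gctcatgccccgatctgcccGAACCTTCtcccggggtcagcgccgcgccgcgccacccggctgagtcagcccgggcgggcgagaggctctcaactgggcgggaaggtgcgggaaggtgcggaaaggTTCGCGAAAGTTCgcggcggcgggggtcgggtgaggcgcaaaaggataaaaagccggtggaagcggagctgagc
HSPA1L (chr6:31815284-31815483, minus strand): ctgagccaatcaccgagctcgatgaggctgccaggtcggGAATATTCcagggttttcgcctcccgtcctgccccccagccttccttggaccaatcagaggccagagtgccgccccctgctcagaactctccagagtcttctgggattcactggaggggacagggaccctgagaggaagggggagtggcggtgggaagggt
HSPB1 (chr7:76302473-76302672, plus strand): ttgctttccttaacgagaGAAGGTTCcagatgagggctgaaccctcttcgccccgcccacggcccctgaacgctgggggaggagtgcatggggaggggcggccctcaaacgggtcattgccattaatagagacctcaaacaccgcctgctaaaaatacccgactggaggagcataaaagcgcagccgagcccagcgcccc
HSPB8 (chr12:119178731-119178930, plus strand): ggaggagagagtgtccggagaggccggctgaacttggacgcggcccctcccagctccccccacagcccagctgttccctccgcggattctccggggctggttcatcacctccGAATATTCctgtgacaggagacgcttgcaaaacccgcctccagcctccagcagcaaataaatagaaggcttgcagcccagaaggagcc

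Promoter windows reached from 250 bases before to 50 after the start, and 10504 of the 12994 measured genes had at least 1. GAANNTTC occurred in 5 of the 11 risen chaperone genes with a window (HSPA6, HSPA1L, DNAJB1, HSPB1 and HSPB8), or 37.5% of their 16 windows. It occurred in 5.01% of the windows of all measured genes and in 6.77% of all 35116 windows. HSPA6 was the only one of the 11 with the run of 3 units, 74 bases before its start, a run found in 0.370% of the measured genes' windows. Among all bright genes, 9.72% of windows of risen genes held GAANNTTC, 5.19% of those of fallen genes and 4.85% of those of genes that did neither. The share among chaperone genes that did not rise was not counted. The TATA box (TATAAA on either strand) was searched for too. It occurred in 18.8% of the 16 chaperone windows and in 6.67% of the windows of all measured genes. Among bright genes it was in 13.2% of windows of risen genes, 6.67% of fallen genes and 5.98% of the others. These matches describe letters, not bound sites.

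The promoters of 6 fallen NF-kB genes are shown, picked likewise from the 7 of 11 that hold a match. Each stretch covers 110 to 31 bases before the start, and capitals mark matches to the NF-kB consensus on either strand.
CXCL1 (chr4:73869283-73869362, plus strand): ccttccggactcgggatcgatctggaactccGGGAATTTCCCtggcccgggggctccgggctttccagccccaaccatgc
CXCL2 (chr4:74099226-74099305, minus strand): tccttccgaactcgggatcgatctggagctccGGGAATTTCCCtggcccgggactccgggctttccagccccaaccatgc
CXCL3 (chr4:74038720-74038799, minus strand): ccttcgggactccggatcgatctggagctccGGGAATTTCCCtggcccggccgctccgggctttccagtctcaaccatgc
NFKBIA (chr14:35404780-35404859, minus strand): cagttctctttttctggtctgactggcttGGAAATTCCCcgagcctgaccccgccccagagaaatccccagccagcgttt
TNFAIP3 (chr6:137867149-137867228, plus strand): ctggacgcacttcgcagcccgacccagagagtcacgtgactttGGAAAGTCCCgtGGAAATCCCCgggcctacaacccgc
REL (chr2:60881464-60881543, plus strand): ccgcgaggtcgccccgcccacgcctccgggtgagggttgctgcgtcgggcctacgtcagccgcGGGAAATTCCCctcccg

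The consensus occurred in 7 of 11 fallen genes of the NF-kB and interleukin-1 lists with a window (58.3% of 12 windows), against 13.4% of the windows of measured genes and 11.3% of all windows. The seventh gene was CCL20, and TNF, IL1A, IL1B and ICAM1 were without a match in this window. CXCL1, CXCL2 and CXCL3 share nearly the whole stretch, including the same 11 capital letters, so they are not separate cases. The lists were drawn up around NF-kB, and the share among their members that did not fall was not counted. Over all bright genes the shares lay closer together, at 13.2% of windows of risen genes, 16.3% of fallen genes and 13.2% of the others. The TATA box occurred in 41.7% of the 12 windows of the fallen list genes, against 6.67% of the windows of measured genes. A raised share was thus not particular to the NF-kB consensus.

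HSPA6 had the largest rise of all measured genes. Of 5 measured genes of the inducible HSP70 and HSP110 list 4 rose (80%, beside 1.69% of all measured genes). The list median was 1.36 log2 units. HSPA6, an HSP70 that is nearly silent without stress, was at 12566 at 42 °C, 0 h and at 4.82, below the floor, in the control, which is at least 588-fold higher. Its other probe set differed by 8.38 log2 units in the same direction. HSPA1L, an HSP70 otherwise known from testis, was at 1008 against 36.1 in the control (27.9-fold), but its second probe set differed by 0.50 log2 units and the mean of its probe sets by 2.65. HSPH1, the HSP110 that exchanges nucleotides on HSP70, was at 10751 against 4976 (2.16-fold), and its relative HSPA4L at 938 against 366 (2.56-fold). HSPA2 did not pass, at 504 against 497. HSPA1A and HSPA1B had only probe sets shared between genes and are not analysed here, and whether their RNA reached the HSPA6 probes was not tested. None of the 7 constitutive HSP70 genes passed in either direction, with HSPA5, the HSP70 of the endoplasmic reticulum, at 11818 against 8410. The 2 HSPA5 probe sets were both higher, by 0.49 and 1.67 log2 units, so the gene did not pass on its brighter one.

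HSP40 proteins bring clients to HSP70, and their classes are given apart. In the DNAJA and DNAJB list 4 of 13 genes rose (30.8%, beside 1.69% of all measured genes). The list median was 0.59 log2 units, or 0.16 with the mean of each gene's probe sets. DNAJB1, the stress-inducible partner of HSP70, was at 9949 at 42 °C, 0 h and at 881 in the control, with its 2 probe sets at 3.50 and 3.66 log2 units. DNAJB4 was at 2453 against 264, and both of its probe sets also agreed (3.22 and 3.61). DNAJB9, which resides in the endoplasmic reticulum, was at 696 against 233 and DNAJB2 at 104 against 49.8. DNAJA1 was at 11981 against 6924 and did not pass. None of the 23 measured DNAJC genes passed, and their median was -0.20 log2 units, or -0.05 after quantile normalization.

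Among 16 HSP90 genes and cochaperones only FKBP4, an immunophilin that docks on HSP90, rose (6.25%, beside 1.69% of all measured genes). It was at 3135 against 1133 in the control. Its 4 probe sets spread between 0.01 and 1.47 log2 units. HSP90AA1 was at 13805 and 13220, close to equal, and HSP90AB1 was at 7325 and 5068. BAG3, which links HSP70 to small heat shock proteins and autophagy, was the 1 of 10 nucleotide exchange factors that rose (10%), at 7118 against 1816. Of 4 small heat shock proteins, which hold unfolded proteins without ATP, 3 rose (75%). HSPB1 was at 7209 against 1116, HSPB8 at 513 against 80.8 and the dim CRYAB at 71.5 against 28.6.

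Chaperones of other compartments and the degradation machinery passed in few cases. Of 11 mitochondrial chaperones and proteases none rose and 1 fell (9.09%, beside 3.56% of all measured genes). This was CLPX, the unfoldase of the matrix protease, at 175 at 42 °C, 0 h, against 415 in the control. HSPE1, the mitochondrial HSP10, was at 6454 against 4514. HSPD1, its HSP60 partner, was at 13453 against 11016, although its 5 probe sets ran from -0.25 to 3.96 log2 units. None of 12 TRiC and prefoldin genes, 29 proteasome subunits or 10 ubiquitin genes passed in either direction. ZFAND2A, a heat-inducible regulator of the proteasome, rose to 2613, against 400 in the control.

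**Figure D2:**
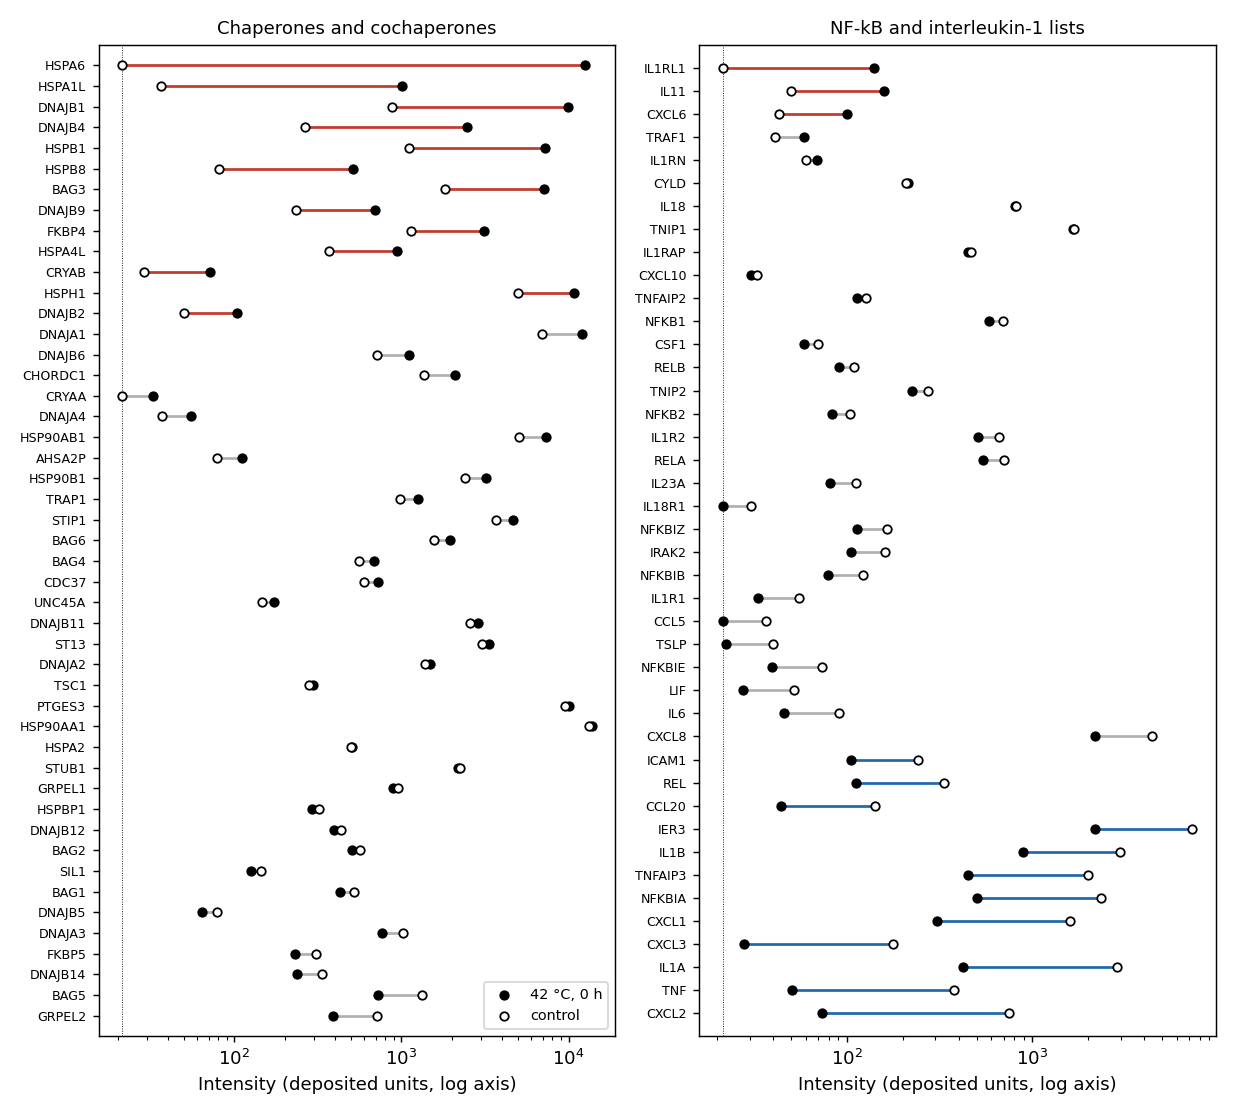
Intensity of each measured member of the cytosolic chaperone lists (left) and of the NF-kB and interleukin-1 lists (right) on a log axis, filled at 42 °C, 0 h and open in the control. Red bars join genes that rose, blue bars genes that fell and grey bars the rest, and the dotted line is the floor of 21.4.

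In the endoplasmic reticulum 3 of 20 genes of the unfolded protein response rose (15%, beside 1.69% of all measured genes) and none fell. HERPUD1, which serves degradation of proteins from that compartment, was at 2728 at 42 °C, 0 h, against 742 in the control. EIF2AK3, the sensor kinase PERK, was at 835 against 312, and DNAJB9 was the third. ATF6, another sensor, was at 181 against 355. The list of ATF4 and CHOP genes split, with 2 of 15 risen and 2 fallen (13.3% each, beside 1.69% and 3.56% of all measured genes). ATF3 rose to 219, against 76.6, and PPP1R15A, which leads a phosphatase to the initiation factor eIF2α, to 1005, against 467. Its paralogue PPP1R15B fell to 399, against 1155, and DDIT4, an inhibitor of mTOR, to 689, against 2875.

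Inflammatory genes were among the largest falls. As deposited, CXCL2, TNF, IL1A and CXCL3 had the 4 largest among bright genes whose probe sets had 1 sign. After quantile normalization CXCL3 (-2.44 log2 units) came behind ADAMTS1 (-2.57) and TADA1 (-2.46), and with the mean of probe sets CXCL2 was at -1.42 and IL1A at -1.51. Of 15 measured NF-kB chemokines and cytokines 5 fell (33.3%) and 2 rose (13.3%), beside 3.56% and 1.69% of all measured genes. Their median was -0.90 log2 units (-0.73 after quantile normalization and -0.46 with the floor set at 2 times the main one). CXCL2, a neutrophil chemokine, was at 73.5 at 42 °C, 0 h, against 745 in the control, 10.1-fold lower, and its other probe set differed by -0.91 log2 units. CXCL1 was at 306 against 1597 and CXCL3 at 28.0 against 177. Whether RNA of these related chemokines reached each other's probes was not tested. TNF, the cytokine that itself activates NF-kB, was at 50.5 against 377, and CCL20, which attracts lymphocytes, at 44.3 against 143. CXCL8, at 2172 against 4439, passed 2-fold as deposited but not after the median shift, and IL6, at 45.6 against 90.2, passed under none of the scalings. Against this direction CXCL6 rose to 99.7, against 42.9, and IL11 to 159, against 49.8.

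The inhibitors that NF-kB induces on itself were lower together with its targets. Of 18 NF-kB subunits and feedback genes 5 fell (27.8%, beside 3.56% of all measured genes) and none rose. NFKBIA was at 506 against 2341 in the control, 4.63-fold lower, but its other probe set differed by -0.55 log2 units and the mean of its probe sets by -1.38. TNFAIP3, a ubiquitin editor that ends NF-kB signals, was at 451 against 2003, with both probe sets below -1.9 log2 units. IER3 was at 2176 against 7257, the adhesion receptor ICAM1 at 105 against 242, and REL at 112 against 334, the REL probe sets all being negative (-1.93 to -0.86). The subunits RELA (540 against 700) and NFKB1 (584 against 693) did not pass. In the interleukin-1 family 2 of 9 genes fell (22.2%), IL1A at 424 against 2859 and IL1B at 889 against 2986. The second IL1A probe set differed by -0.26 log2 units, while both IL1B probe sets lay near -1.75. IL1RL1, the receptor of interleukin-33, rose to 140 and was below the floor in the control. The 3 IL1RL1 probe sets ran from 0.54 to 2.71 log2 units, and the gene did not pass with their mean (0.95) or with the probe set highest in the control (0.57). Of 23 interferon response genes 2 fell (8.70%, beside 3.56% of all measured genes). These were IFIT2 (20.4 against 89.5) and the transcription factor IRF1 (66.8 against 163).

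Early response genes moved both ways. In the list of EGR, KLF and other early factors 3 of 23 rose and 3 fell. IER5, which takes part in HSF1 regulation, was at 8856 at 42 °C, 0 h, against 2496 in the control, and CSRNP1 was at 215 against 51.6. KLF6 fell to 339, against 1066, and KLF11 fell by 1.23 log2 units to a value below the floor. The dim EGR3 was at 44.7 against 9.71. FOS, the AP-1 subunit of the early response, was at 130 against 3.86, and its relative FOSL1 was lower at 820 against 1871. JUN (1680 against 1134) and MYC (1108 against 2305) did not pass under all scalings. DUSP1, the phosphatase that switches off stress kinases, was the 1 of 16 MAP kinase feedback genes that rose (6.25%), at 1673 against 213. Its 3 probe sets ran from 0.73 to 2.97 log2 units. ID2, an inhibitor of helix-loop-helix factors, was at 121 against 4.46, but its second probe set differed by 0.10.

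**Figure D3:**
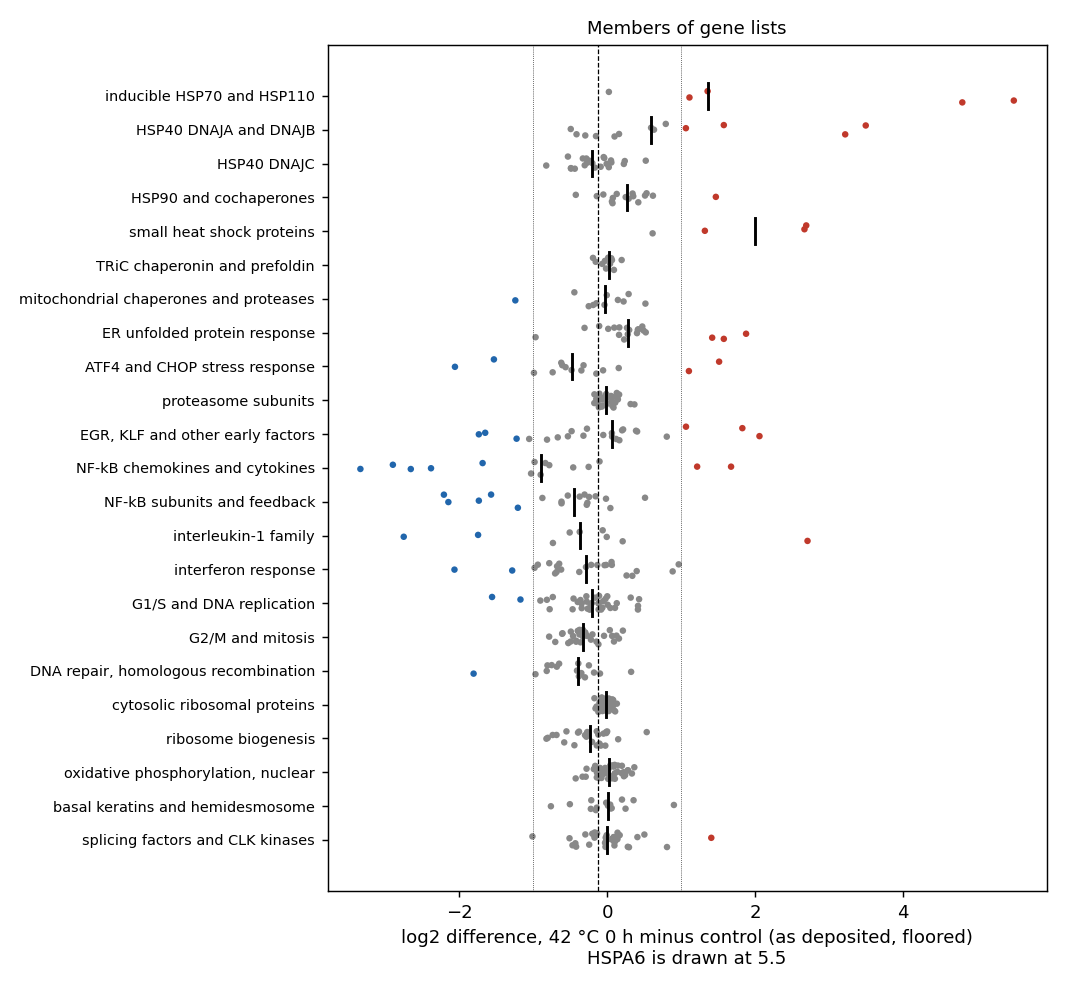
Log2 difference (42 °C, 0 h minus control, as deposited) of the members of 23 gene lists, with red points for genes that rose, blue for genes that fell and black bars for list medians. The dashed line is the median of all measured genes at -0.13 and the dotted lines mark 2-fold, with the farthest right points in the chaperone lists and the farthest left in the NF-kB lists.

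Among genes of growth arrest, of 8 GADD45 proteins and stress polo kinases 2 fell and 1 rose (12.5%, beside 1.69% of all measured genes). PLK2, a stress kinase, was at 421 at 42 °C, 0 h, against 1684 in the control, and GADD45A, a growth arrest protein, was at 1153 against 3143. FADD, the adaptor of death receptors, was at 752 against 2114, the 1 of 17 caspase and death receptor genes that fell. BMF, at 7.14 against 49.3, was the 1 of 12 pro-apoptotic BCL2 genes that fell. The shares that fell in these lists were 25%, 5.88% and 8.33%, beside 3.56% of all measured genes. Each share rests on only 1 or 2 genes. None of 9 anti-apoptotic genes passed.

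Cell cycle genes lay mostly below the control by small amounts. Of 32 G2/M genes 26 were negative, where 65.5% of all measured genes were, and none passed, with a median of -0.33 log2 units (-0.26 after quantile normalization). Of 37 G1/S and replication genes 2 fell (5.41%, beside 3.56% of all measured genes). These were CCNE2, the cyclin that starts S phase (384 against 868), and E2F8 (164 against 483). Of 16 homologous recombination genes 15 were negative and PALB2, which joins BRCA1 to BRCA2, was the 1 that fell (6.25%), at 81.7 against 286. CDKN2B, an inhibitor of CDK4, rose to 310, against 152.

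In housekeeping lists few genes neared the threshold. None of 42 ribosomal protein genes passed, and all lay between -0.17 and 0.13 log2 units. None of 41 nuclear genes of oxidative phosphorylation, 26 translation initiation factors or 17 aminoacyl-tRNA synthetases passed. Of 26 ribosome biogenesis genes 24 were negative, where 65.5% of all measured genes were, with a median of -0.23, and none passed. The HSF1 gene itself was at 302 against 242.

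Several genes with the largest rises belong to other functions. TENT5A, a noncanonical poly(A) polymerase, was at 3362 at 42 °C, 0 h, against 126 in the control, and its 2 probe sets differed by 4.74 and 5.60 log2 units. Of 8 poly(A) polymerase genes 3 rose (37.5%, beside 1.69% of all measured genes), among them TENT4B (630 against 293). The third, TENT5C (119 against 18.1), had 1 probe set at 2.48 and another at -0.34 log2 units. RGS2, which shortens G protein signals, was at 3390 against 312, and GEM, a small GTPase, at 917 against 73.1. MMP3, a matrix protease, was at 806 against 73.1, and COL2A1, a collagen of cartilage, at 432 against 22.3 with both probe sets above 3.4. GAS1, a growth arrest protein of the cell surface, was at 786 against 77.8, but its second probe set above the floor differed by 1.10 log2 units.

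RPPH1, the RNA of RNase P, was at 412 against 27.4 and the pseudogene RPS16P5 at 627 against 38.6. PNLDC1, known in mice as a trimmer of germline small RNAs, was at 319 against 3.71, GCNA at 423 against 36.3, LEAP2 at 232 against 39.1 and USPL1 at 1291 against 229. GPR89B (217 against 14.0) and EID3 (128 against 10.5) were below the floor in the control. RPS16P5, RPPH1, PNLDC1, GCNA, LEAP2, GPR89B and EID3 rest on 1 probe set each.

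The falls outside the inflammatory lists covered several functions. ADAMTS1, a secreted protease, was at 300 against 1812 in the control and its 2 probe sets differed by -2.60 and -2.29 log2 units. PLAU, the urokinase of plasminogen activation, was at 2390 against 6074, and SNAI2, a repressor of epithelial genes, at 1306 against 2911. ADM, a vasodilator peptide, was at 1691 against 5037. CENPC, a centromere protein, was at 26.6 against 167, TADA1 of the SAGA complex at 61.0 against 380, HYLS1 of the centriole at 98.9 against 584, and EXOC8 of the exocyst at 84.6 against 380. The Notch genes LFNG (50.2 against 160) and DLL1 (215 against 513) also fell. The host transcript of a microRNA, MIR205HG, was at 87.4 against 382. ANKZF1, which acts on stalled ribosomes, was at 4.89 against 114, C9orf72 at 29.2 against 129, HOXB3 at 23.0 against 104, LENG1 at 24.3 against 111 and the long noncoding LINC01089 at 12.3 against 88.4. SNX8 (2.02 against 93.7) and RELT (7.51 against 91.1) were below the floor at 42 °C, 0 h. RAP2B, a small GTPase, was at 778 against 1803, and TGIF1, a repressor in the TGF-beta pathway, at 218 against 601. The autophagy genes VMP1 (62.5 against 170) and ULK1 (5.31 against 61.3) were the 2 of 20 in their list that fell. This is 10%, beside 3.56% of all measured genes.

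Single genes of other stress lists rose. TXNIP, which binds thioredoxin, was at 2196 at 42 °C, 0 h, against 949 in the control, and all 3 of its probe sets lay above 1.0 log2 units. HMOX1, which degrades haem, was the 1 of 20 NRF2 genes that rose (5%, beside 1.69% of all measured genes), at 58.4 against 15.0. SLC30A1, a zinc exporter, was at 1265 against 478, with its probe sets at 0.00 and 1.40 log2 units. CLK1, a kinase of splicing factors, was at 682 against 257, the 1 of 33 splicing genes that rose (3.03%). KDM2A was at 1583 against 736 and OVOL1, an epithelial transcription factor, at 265 against 105. ARID1B was at 227 against 99.4, but its 6 probe sets ran from -2.24 to 1.19. The dim BMP4 was at 82.6 against 1.70 and GADD45G at 43.3 against 21.1.

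Zinc finger genes, which encode DNA-binding proteins, many of them repressors, are the largest of 38 gene families counted by symbol. Of 334 measured ZNF genes 39 fell (11.7%) and 6 rose (1.80%), and 262 (78.4%) were below zero, against 65.5% of all measured genes. Their median was -0.31 log2 units as deposited and -0.12 after quantile normalization. The family is dim, with a median intensity of 61.7 at 42 °C, 0 h and 87.0 in the control, but of its 175 bright members 21 fell (12%) and 2 rose, beside the 2.97% of all bright genes that fell. ZNF627 was at 21.9 against 131, ZNF574 at 25.4 against 116 and ZNF697 at 97.5 against 430, with both ZNF697 probe sets below -1.6. By share of falls the smaller families CXCL (33.3% of 9), KLF (23.1% of 13), MIR (20% of 15) and ARHGAP (12.5% of 24) lay above ZNF. None of 48 MRPL, 43 PSM or 41 NDUF genes passed.

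Genes that rose or fell had a shorter median length than the rest. Among bright genes the median genomic length was 13.8 kb for those that rose, 14.0 kb for those that fell and 32.3 kb for those that did neither. Under 10 kb, 2.81% rose and 5.92% fell. From 10 to 50 kb it was 1.28% and 2.89%, and at 50 kb and over 0.915% and 1.41%. The median control levels of the classes were 451, 433 and 364, so they were lower in longer genes. The part of expression level in these shares was not tested.

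**Figure D4:**
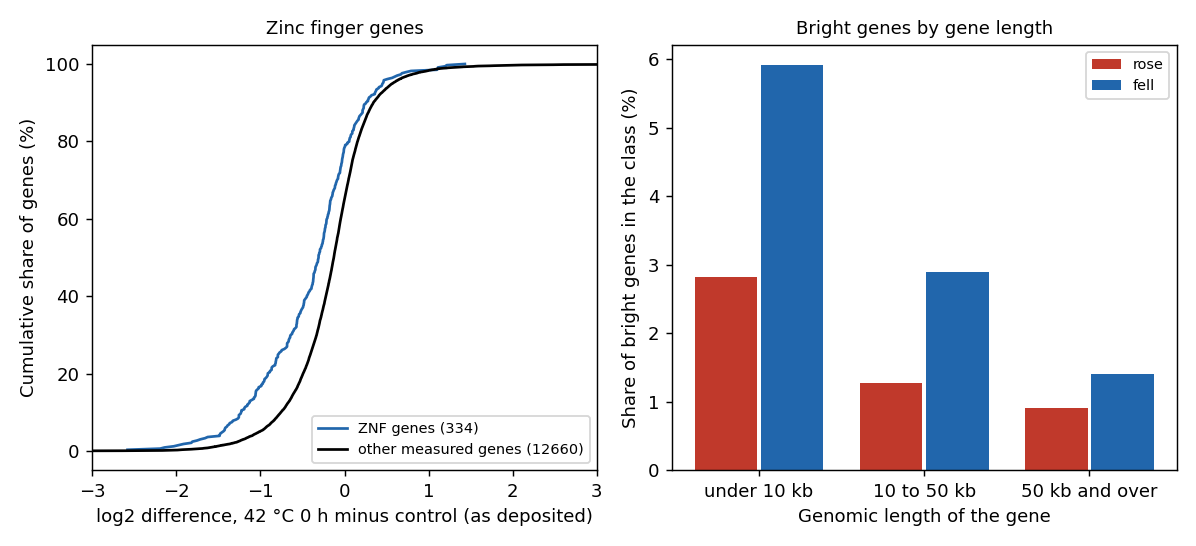
Left, cumulative share of 334 ZNF genes and of the other measured genes by log2 difference (42 °C, 0 h minus control), where the ZNF curve lies to the left. Right, share of bright genes that rose or fell in 3 classes of genomic length, which is highest under 10 kb (2.81% and 5.92%).

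The other arrays give these genes' later and hotter values, and all share the control array. Of the 127 bright risen genes 82 had their highest value of all 7 arrays at 42 °C, 0 h, and of the 259 bright fallen genes 187 had their lowest. The genes were chosen on that array, which also had the lowest median of the 7, so these counts are a description only. On the arrays as deposited, 44 of the risen genes were still past 2-fold at 42 °C, 6 h and 19 at 12 h, and 64 were at 44 °C, 0 h. Of the fallen genes 24 were past 2-fold at 42 °C, 6 h, 23 at 12 h, and 10 at 44 °C, 0 h. That last array is also the brightest of the series, with a median of 32.1. At 44 °C, 6 and 12 h it was 90 and 156 of the fallen genes, on arrays whose medians were 19.3 and 19.2. Over probe sets above the floor on all arrays, however, their median log2 differences from the control were -0.07 and -0.35. At 42 °C, 0 h this was -0.13. The part of array level in these counts was not tested.

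HSPA6 was at 12566 at 0 h, 262 at 6 h and 18.9 at 12 h after 42 °C, and at 5143 at 0 h after 44 °C. DNAJB1 followed the same order at 42 °C (9949, 1354 and 1299). HSPB1 stayed high, at 7209, 7115 and 6176. MMP3 was higher at 6 h (1419) than at 0 h (806). IL1A was at 424 at 0 h, 3968 at 6 h and 4910 at 12 h, and TNF at 50.5, 389 and 311, against control values of 2859 for IL1A and 377 for TNF.

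**Figure D5:**
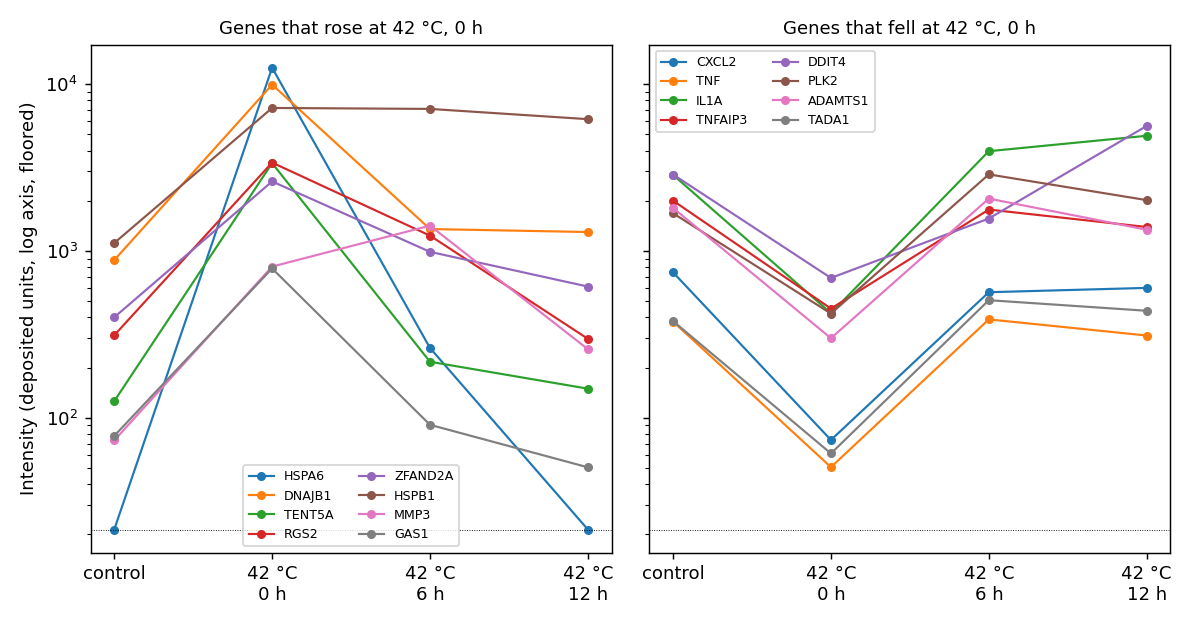
Intensity on a log axis in the control and at 0, 6 and 12 h after 42 °C for 8 genes that rose (left) and 8 that fell (right) at 0 h, 1 array a point, with values under 21.4 raised to it. HSPB1 keeps its level through 12 h while HSPA6 is back at the floor, and the fallen genes are higher again at 6 h.

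A rough gauge of the spread between probe sets comes from genes with several bright probe sets, whose log2 differences had a standard deviation of 0.34 within a gene (3893 genes). Of the 60 bright risen genes with several probe sets above the floor 43 had all of them in the same direction, and of the 118 fallen genes 99 did.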

How the data were processed

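Intensity values of 54675 probe sets per array were deposited by the authors and were taken as linear from their range. Per the labels, cDNA was made from 5 µg of total RNA. The summary algorithm and any scaling are not stated in the labels. Single-gene probe sets (41091) were named with the array's annotation table and RefSeq (GRCh38.p14), and the gene's probe set with the highest mean log2 over 7 arrays was used. The 62 control probe sets were left out after values were seen, which changed the GAPDH probe set. Genes were called at 2-fold under 3 scalings, and a difference with 1 array below the floor is given as at least that fold. With 1 array per condition no test was made. The steps were tested on simulated data, in which the changed genes lay well above the floor and stayed within the measured range. The draw was limited to that range after a first draw over all levels missed some rises. Dim genes and changes near 2-fold were not covered. Quantile normalization caps values above the measured range of intensities, so a rise that exceeds it can be missed.

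Genes named were the 25 largest rises and falls among bright called genes whose probe sets had 1 sign, called members of 71 gene lists with examples that did not pass, and fixed reference genes. HSPA8 and HSF2 are not analysed here. Members and lists were chosen with earlier results of these data known. Python 3.11.15, pandas 2.3.3, numpy 2.4.6 and matplotlib 3.10.9 were used.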

Additional observations from a re-analysis of the deposited data

How the results depend on the processing

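With 1 array per condition no difference has a replicate check. The other 5 of the 7 arrays serve as side values and also enter the floor, the choice of probe set and the scalings. The counts of higher and lower genes (219 and 462) were 219 and 699 as deposited alone and 364 and 472 after quantile normalization alone. They were 590 and 1012 without a floor, 127 and 258 with a floor set at 2 times the main one, 139 and 271 with the mean of a gene's probe sets, and 127 and 259 for bright genes alone. A threshold of 1.5-fold gave 623 and 1358 and one of 3-fold gave 70 and 79. Of 106 named genes, all kept direction and call after quantile normalization alone, after the median shift alone and without a floor. This follows from the rule and is no check. Each named gene had already passed 2-fold under all 3 scalings, and removing the floor can only widen a deposited difference. With the higher floor 8 no longer passed 2-fold (CRYAB, ULK1, EGR3, KLF11, BMP4, GADD45G, BMF and HMOX1). With the mean of probe sets, which counts those at the floor as 0 difference, 1 reversed and 14 no longer passed (IL1RL1, C9orf72, FKBP4, HERPUD1, EIF2AK3, ATF3, KLF11, ICAM1, SLC30A1, KDM2A, CDKN2B, DLL1, LFNG and RAP2B). ARID1B was at -0.39 with the mean of probe sets and -0.012 with the probe set that is highest on the control array, and TENT5C at -0.34 with that same probe set choice. Probe sets of both genes differ in sign. With that choice IL1RL1 and ID2 no longer passed. Of 71 list medians, 3 moved by over 0.337 log2 units (the spread between probe sets) with the mean of probe sets, 2 without a floor, 2 with the higher floor and 1 with the control's probe set. No paired analysis was possible because each condition has 1 array.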

Other observations

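Further bright genes are named here that fall outside the rule for named genes and were chosen after their values were seen. SERPINH1, the collagen chaperone HSP47, JMJD6, a hydroxylase and demethylase of the nucleus, NKRF, a repressor of NF-kB target genes, and CLU, an extracellular chaperone, rose by 1.99, 2.44, 2.31 and 1.36 log2 units. The transcription factors DLX2, MSX1 and EOMES rose by 1.94, 1.87 and 1.85 log2 units.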
